A study of Mus musculus with 12 samples.

Results

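The genes described here are 6 homeobox genes of the mouse HoxA cluster (Hoxa3, Hoxa5, Hoxa6, Hoxa7, Hoxa9 and Hoxa10) together with Meis1 and Pbx3, chosen by name, 8 of the 21885 genes in the table. RNA-seq had been run on sorted cells of 3 kinds, with 4 libraries of each. The P80R B-ALL group came from B-cell acute lymphoblastic leukaemias carrying the PAX5 P80R mutant, sorted as GFP-positive cells out of primary recipient mice 1300, 1301, 1302 and 1308. The Pax5 KO group held fetal liver cells of Pax5-/- genotype at the common lymphoid progenitor (CLP) and pre-pro-B stage. The Pax5 WT group held Pax5+/+ fetal liver cells at the pro-B and pre-BI stage. The age of the fetuses, the Pax5 genotype of the cells that received the mutant, and whether recipients shared donor cells are not stated in the labels. Genotype differed together with developmental stage, and for the leukaemias also with transplantation, so these cannot be told apart in any comparison. Nothing in the labels says that libraries of a group came from separate animals, other than the recipient numbers, so for the fetal liver groups p-values measure the spread between libraries, which may be technical.

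Hox genes encode homeodomain transcription factors, arranged in clusters whose order along the chromosome follows the order in which they are used along the body axis. In blood, HoxA genes are active in haematopoietic stem cells and early progenitors and are switched off as cells differentiate. Meis1 and Pbx3 encode homeodomain proteins of the TALE class (three-amino-acid loop extension), which bind DNA together with Hox proteins. HOXA9 with MEIS1 and PBX3 is best known from acute leukaemias with KMT2A rearrangements, where these genes are highly expressed.

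The values are read counts divided by 1 factor per library, called scaled reads here. Depth was 24914250 to 29386256 reads in P80R B-ALL, 36871775 to 43513852 in Pax5 KO and 33191950 to 39465256 in Pax5 WT. Pax5 itself had 847, 1146, 1316 and 255 scaled reads in P80R B-ALL from recipients 1300, 1301, 1302 and 1308, 229.9 to 267 in Pax5 KO and 6194 to 7315 in Pax5 WT and mutant and endogenous transcripts are counted together in these values. All 12 B-lineage markers had reads in every group, with sums of 113837 to 208133 in P80R B-ALL, 48553 to 49846 in Pax5 KO and 244429 to 282756 in Pax5 WT. Markers of other blood cells differed widely between recipients. The 14 granulocyte and monocyte markers summed to 135906, 14354, 7897 and 245326 in recipients 1300, 1301, 1302 and 1308, 10860 to 11670 in Pax5 KO and 602 to 866 in Pax5 WT, where Elane, Csf3r, S100a8, S100a9 and Cebpe were at 0. The 12 erythroid and megakaryocyte markers summed to 412539, 38922, 32599 and 1071130 in the same recipients, 309 to 379 in Pax5 KO, where Hba-a2 and Alas2 were among those at 0, and 107 to 193 in Pax5 WT, where Hba-a1 and Hba-a2 were at 0. The libraries of recipients 1300 and 1308 thus stood apart, and results that rest on them are given with and without them.

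The 4 promoters below are shown because they belong to the 2 HoxA genes with the most reads in Pax5 KO, to Hoxa10, whose values in the leukaemias had another order, and to Meis1. Each runs from 250 bases before to 50 after the annotated start site, read 5′ to 3′ on the minus strand, from RefSeq on GRCm38.p6. Capitals mark the letters CCAAT and GGGCGG on either strand, core elements of many promoters.
Hoxa7, chr6:52218524-52218823: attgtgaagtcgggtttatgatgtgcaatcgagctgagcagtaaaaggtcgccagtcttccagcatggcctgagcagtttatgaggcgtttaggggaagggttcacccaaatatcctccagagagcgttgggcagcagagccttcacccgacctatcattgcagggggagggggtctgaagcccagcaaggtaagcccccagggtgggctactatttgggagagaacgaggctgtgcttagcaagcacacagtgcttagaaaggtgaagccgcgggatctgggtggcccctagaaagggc
Hoxa9, chr6:52227321-52227620: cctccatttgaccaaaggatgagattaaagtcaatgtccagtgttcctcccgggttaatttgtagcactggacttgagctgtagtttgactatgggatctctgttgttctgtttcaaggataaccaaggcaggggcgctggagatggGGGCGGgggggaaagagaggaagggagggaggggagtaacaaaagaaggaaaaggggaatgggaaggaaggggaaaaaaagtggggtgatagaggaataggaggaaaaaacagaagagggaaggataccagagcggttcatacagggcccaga
Hoxa10, chr6:52240805-52241104: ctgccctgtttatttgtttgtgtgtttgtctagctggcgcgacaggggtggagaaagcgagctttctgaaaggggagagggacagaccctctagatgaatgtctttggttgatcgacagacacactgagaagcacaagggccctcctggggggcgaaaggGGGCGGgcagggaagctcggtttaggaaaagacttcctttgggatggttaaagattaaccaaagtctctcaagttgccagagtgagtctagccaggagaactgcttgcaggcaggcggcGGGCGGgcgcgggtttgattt
Meis1, chr11:19018920-19019219: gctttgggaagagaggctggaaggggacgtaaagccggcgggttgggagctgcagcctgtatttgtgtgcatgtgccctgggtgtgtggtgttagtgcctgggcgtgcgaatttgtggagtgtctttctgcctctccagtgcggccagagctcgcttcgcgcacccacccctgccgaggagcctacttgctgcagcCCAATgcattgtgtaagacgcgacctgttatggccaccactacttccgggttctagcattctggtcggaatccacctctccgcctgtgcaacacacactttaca

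Of the 8 genes, 7 had an entry, all but Pbx3. The Hoxa9 window held GGGCGG at position -103 from the start site, and the Hoxa10 window held it at -90 and 30. A second annotated start site of Hoxa10, with a window at chr6:52234890-52235189 that is not printed, held CCAAT at -64 and no GGGCGG. The Meis1 window held CCAAT at -54, and the Hoxa7 window held neither. Over all 32851 promoters of this length, 37.4% held CCAAT and 35.7% held GGGCGG on either strand. The letters TGATTNAT, a Hox and Pbx type site in which N is any base, occurred in 3.22% of all promoters and in none of the 7 genes. The letters TGACAG, the core bound by Meis proteins, occurred in 19.2% of all promoters and, among these genes, in the window of Hoxa3 alone. These are matches of letters and not measured binding sites.

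Most of the HoxA genes, and Meis1, were highest in the Pax5 KO progenitors and far lower in the P80R B-ALL cells. In P80R B-ALL against Pax5 KO, 4 of the 6 tested genes were lower (Hoxa5, Hoxa7, Hoxa9 and Meis1), and Hoxa10 and Pbx3 were not past the threshold. Without recipients 1300 and 1308, the same 4 genes and Pbx3 were lower. Over all 12200 genes tested in this comparison, 38.4% were called, 20.8% lower and 17.6% higher, at an adjusted p under 0.05 (limma, Benjamini-Hochberg over all genes). In Pax5 KO against Pax5 WT, 5 of the 6 were higher, all but Pbx3, where 64.8% of all genes were called, 35.7% higher and 29.1% lower. In P80R B-ALL against Pax5 WT, Hoxa10 alone was called, higher, where 39.9% of all genes were called, 21% higher and 18.9% lower. Of all genes, 22.9% were lower in every P80R B-ALL library than in any Pax5 KO library and 19.5% were higher, 21.2% were higher and 19.4% lower in the same sense in P80R B-ALL against Pax5 WT, and 32.4% were higher and 26.7% lower in Pax5 KO against Pax5 WT. The 3 comparisons share libraries and are therefore given side by side. A gene was tested when it had at least 10 scaled reads in at least 4 libraries. Hoxa5 and Hoxa9 reached 10 in 4 Pax5 KO libraries and in 1 other, and Hoxa7 in 4 and 2 others, so their passing this minimum rested on the group in which they were high, and the counts above carry no weight of their own. Hoxa10 reached it in 2 P80R B-ALL, 2 Pax5 KO and 0 Pax5 WT libraries, so the same holds for its calls against Pax5 WT. Hoxa3 and Hoxa6 reached it in 2 and 1 libraries and were not tested. In these bulk samples, fewer expressing cells and less RNA per cell cannot be told apart.

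**Figure D1:**
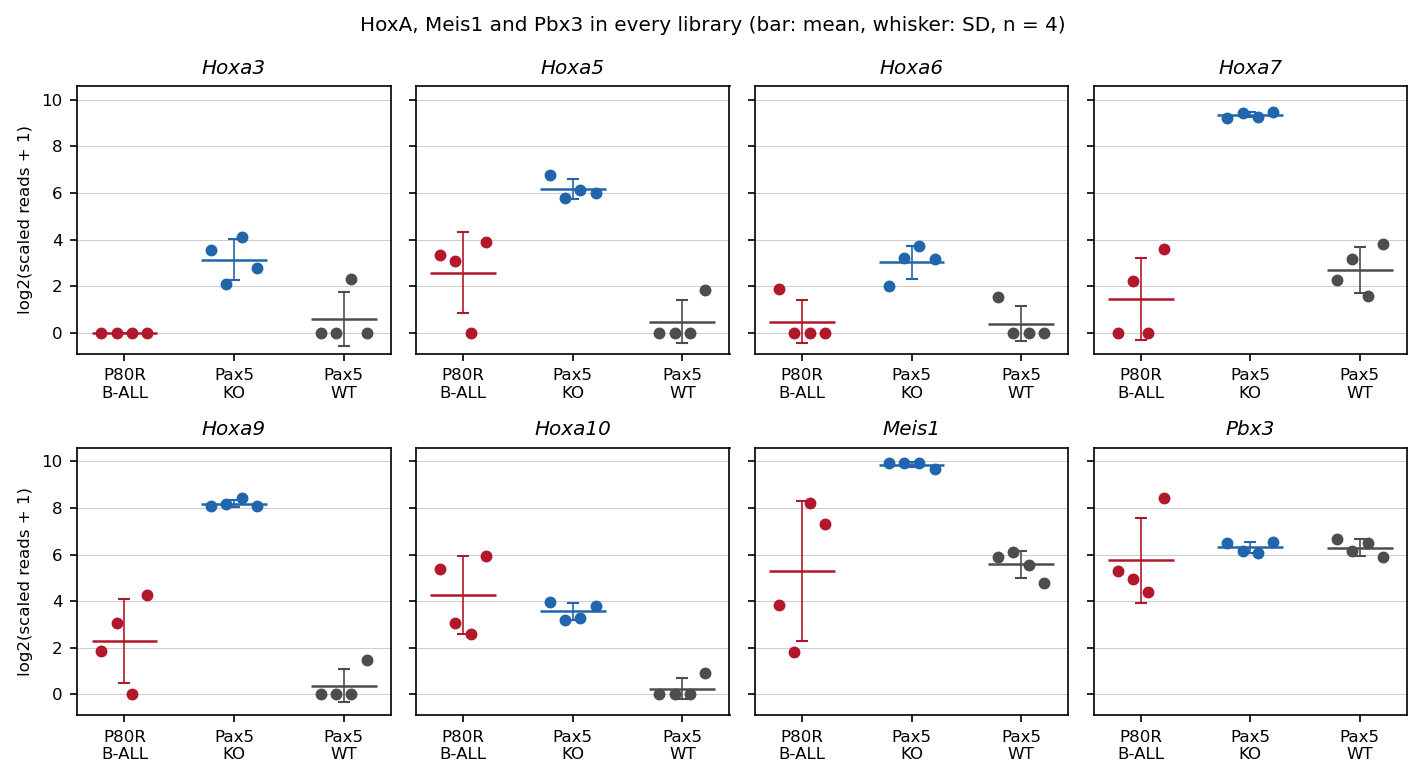
Scaled reads (log2 after adding 1, vertical axis) of the 8 genes in each of the 12 libraries, by group, with a bar at the mean and whiskers of 1 SD (n = 4). Hoxa5, Hoxa7, Hoxa9 and Meis1 sit higher in every Pax5 KO library than in any other library, Hoxa10 overlaps between P80R B-ALL and Pax5 KO, and Pbx3 is raised in the leukaemia of recipient 1308 alone.

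Hoxa9 (ENSMUSG00000038227, chromosome 6) encodes the HoxA protein most closely tied to progenitor self-renewal and acute leukaemia, and mice without it have fewer lymphoid progenitors. It had 2.63, 7.38, 0 and 18.0 scaled reads in P80R B-ALL from recipients 1300, 1301, 1302 and 1308, 271, 287, 339 and 271 in Pax5 KO, and 0, 0, 0 and 1.72 in Pax5 WT. Every Pax5 KO library was above every other library, and the leukaemias overlapped Pax5 WT. The log2 difference of P80R B-ALL from Pax5 KO was -5.89 ± 0.83 (SE, adjusted p = 0.00118, limma), with a mean 41.7-fold lower. In reads the leukaemias held 21 and Pax5 KO 1475, and without recipient 1308 the P80R B-ALL mean was 3.34 in place of 7.00. Pax5 KO was higher than Pax5 WT by 7.83 ± 0.39 log2 (adjusted p = 5.36e-09, limma). With only 2 reads in all Pax5 WT libraries, the ratio of reads scaled by depth was 614, with a 95% counting interval of 170 to 5076. P80R B-ALL differed from Pax5 WT by 1.93 ± 1.04 log2, which did not pass (adjusted p = 0.165, limma), although it did without recipient 1302 (2.697, adjusted p = 0.0390).

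Hoxa7 (ENSMUSG00000038236, chromosome 6), the neighbour of Hoxa9 in the cluster and likewise high in KMT2A-rearranged leukaemia, had the highest level per kilobase of the 6 HoxA genes in Pax5 KO and in Pax5 WT, but not in P80R B-ALL. It had 0, 3.69, 0 and 11.1 scaled reads in P80R B-ALL, in the recipient order above, 604.5, 703, 624 and 718 in Pax5 KO, and 3.78, 8.00, 1.98 and 12.9 in Pax5 WT. The leukaemias lay in the range of Pax5 WT or below it, far under every Pax5 KO library. P80R B-ALL differed from Pax5 KO by -7.91 ± 0.80 log2 (adjusted p = 0.000322, limma), with a mean 179-fold lower. Without recipient 1308 the P80R B-ALL mean was 1.23 in place of 3.69. Pax5 KO was 6.67 ± 0.40 log2 above Pax5 WT (adjusted p = 2.81e-08, limma), with a mean 99.4-fold higher. The difference of P80R B-ALL from Pax5 WT was -1.24 ± 1.02 (adjusted p = 0.355, limma). In the annotation, 20.4% of the exon bases of Hoxa7 lie opposite those of the antisense gene Hoxaas3, and the library kit does not mark strand, so reads of the pair cannot be told apart there.

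Hoxa5 (ENSMUSG00000038253, chromosome 6), which encodes a regulator of progenitor differentiation, followed the same order at a lower level. Its values were 9.20, 7.38, 0 and 13.8 in P80R B-ALL, 109, 53.4, 69.4 and 62.1 in Pax5 KO, and 0, 0, 0 and 2.58 in Pax5 WT. Pax5 KO did not overlap with either group, whereas P80R B-ALL and Pax5 WT overlapped at 0, through recipient 1302. P80R B-ALL differed from Pax5 KO by -3.59 ± 0.85 log2 (adjusted p = 0.0107, limma), with a mean 9.66-fold lower. Pax5 KO exceeded Pax5 WT by 5.71 ± 0.50 log2 (adjusted p = 9.59e-07, limma), and the depth-scaled read ratio, 375 reads against 3, was 104 (95% counting interval 35.3 to 507). Against Pax5 WT the leukaemias were 2.12 ± 1.03 log2 higher, short of the threshold (adjusted p = 0.130, limma). Without recipient 1302 this difference was 2.98 (adjusted p = 0.0185), and one fit to all 12 libraries also called it (adjusted p = 0.0455).

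Hoxa3 (ENSMUSG00000079560) and Hoxa6 (ENSMUSG00000043219), both on chromosome 6, were at the edge of detection. Hoxa3 was at 0 in all 4 P80R B-ALL libraries, at 10.7, 3.29, 16.3 and 5.78 in Pax5 KO, and at 0, 0, 3.95 and 0 in Pax5 WT. Against a floor of 3 reads per library, its P80R B-ALL mean was at least 2.32-fold lower than that of Pax5 KO. Without the minimum on values, this difference passed (adjusted p = 0.00341, limma), as did that of Pax5 KO from Pax5 WT (adjusted p = 0.0232). In the annotation, 25.4% of its exon bases lie opposite other genes and 8.01% overlap a gene on the same strand. Hoxa6 had 2.63, 0, 0 and 0 in P80R B-ALL, 3.05, 8.22, 12.0 and 7.95 in Pax5 KO, and 1.89, 0, 0 and 0 in Pax5 WT. All 4 Pax5 KO libraries were above the other 8, with 39 reads in all against 2 in P80R B-ALL, a depth-scaled ratio of P80R B-ALL to Pax5 KO of 0.0840 (95% counting interval 0.00983 to 0.324). Hoxa2, Hoxa4, Hoxa11 and Hoxa13 were not tested, and their highest value was 10.7, for Hoxa2 in Pax5 KO library 1.

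Hoxa10 (ENSMUSG00000000938, chromosome 6), at the 5′ side of Hoxa9 in the cluster and a regulator of myeloid and megakaryocyte progenitors, had other values in the leukaemias than its neighbours. It had 40.8, 7.38, 4.96 and 60.9 scaled reads in P80R B-ALL from recipients 1300, 1301, 1302 and 1308, 14.5, 8.22, 8.57 and 13.0 in Pax5 KO, and 0, 0, 0 and 0.860 in Pax5 WT. Recipients 1300 and 1308 were above, and recipients 1301 and 1302 below, all Pax5 KO libraries. The difference of P80R B-ALL from Pax5 KO was 0.69 ± 0.83 log2 (adjusted p = 0.538, limma), and it turned to -0.73 without recipients 1300 and 1308 (adjusted p = 0.266). Against Pax5 WT, P80R B-ALL was higher in 4 of 4 libraries, by 4.02 ± 0.92 log2 (adjusted p = 0.00742, limma), with 85 reads against 1 and a depth-scaled ratio of 116 (95% counting interval 20.3 to 4633). Without recipients 1300 and 1308 this difference was 2.60 log2 (adjusted p = 0.0193, limma). Hoxa10 reached the minimum of 10 in 4 libraries, and these 2 recipients were among them. Without them it would not have been tested, so this value carries no weight as a test. The 2 recipients with the most Hoxa10 are those with the largest sums of granulocyte and monocyte and of erythroid and megakaryocyte markers given above, and the part of these in the Hoxa10 level was not tested. Pax5 KO was 3.33 ± 0.50 log2 above Pax5 WT (adjusted p = 0.000102, limma), with 57 reads against 1 and a ratio of 47.5 (95% counting interval 8.18 to 1907). Without recipient 1308 the P80R B-ALL mean was 17.7 in place of 28.5.

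Meis1 (ENSMUSG00000020160, chromosome 11), the Hox cofactor that shortens the latency of Hoxa9-driven leukaemia in mice, varied widely among the leukaemias. It had 13.1, 2.46, 298 and 156 scaled reads in P80R B-ALL from recipients 1300, 1301, 1302 and 1308, 968, 967, 972 and 822 in Pax5 KO, and 58.6, 67.0, 45.5 and 26.7 in Pax5 WT. Recipients 1302 and 1308 were above all Pax5 WT libraries, recipients 1300 and 1301 were below them, and all 4 were below every Pax5 KO library. The recipient with the highest Meis1 value, 1302, was the one in which Hoxa3, Hoxa5, Hoxa6, Hoxa7 and Hoxa9 were all at 0. P80R B-ALL differed from Pax5 KO by -4.58 ± 1.26 log2 (adjusted p = 0.0205, limma), with a mean of 117 ± 139 against 932 ± 73.5 (SD, n = 4 each). The mean without recipient 1302 was 57.3. This call was lost under edgeR on the recovered reads (-2.93, adjusted p = 0.0639). It was also lost without Pax5 KO library 1, 2 or 3, at adjusted p of 0.0507, 0.0528 and 0.0533. Pax5 KO was 4.28 ± 0.24 log2 above Pax5 WT, with a mean 18.9-fold higher (adjusted p = 1.40e-08, limma). Against Pax5 WT the leukaemias differed by -0.29 ± 1.27 log2 (adjusted p = 0.873, limma). That direction turned under several alternatives, among them leaving out recipient 1300 (0.19) or recipient 1301 (0.87). In the annotation, 9.77% of its exon bases overlap a gene on the same strand and 8.51% lie opposite another gene.

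**Figure D2:**
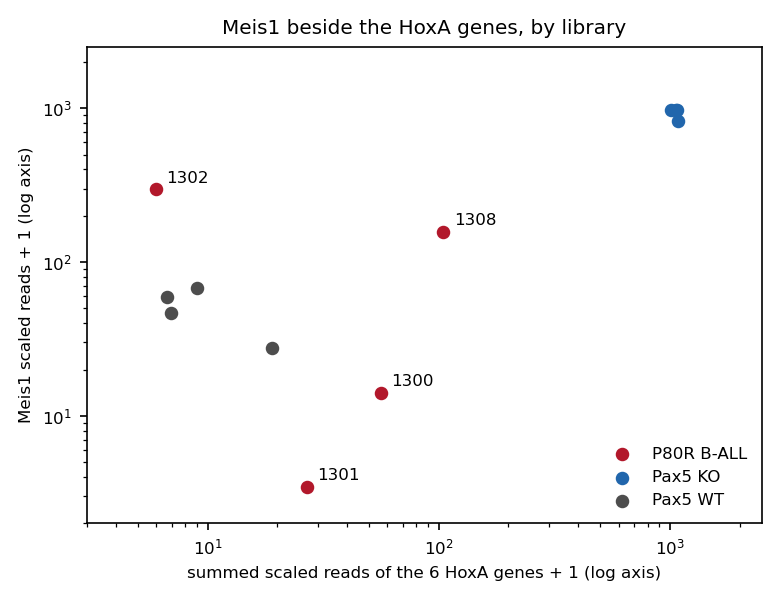
Meis1 (vertical) against the summed 6 HoxA genes (horizontal), in scaled reads plus 1 on log axes, 1 point per library, with the recipient number beside each leukaemia. The Pax5 KO libraries lie together at the top right, and recipient 1302 has the highest Meis1 value of the leukaemias (298) beside the lowest HoxA sum (4.96).

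Pbx3 (ENSMUSG00000038718, chromosome 2) encodes a Hox cofactor that HOXA9-driven human leukaemia cells depend on. It was called in none of the 3 comparisons, with 38.1, 29.5, 19.8 and 346 in P80R B-ALL, 89.1, 69.9, 66.9 and 92.5 in Pax5 KO, and 101, 70.0, 89.0 and 57.6 in Pax5 WT. The leukaemias of recipients 1300, 1301 and 1302 were below all 8 fetal liver libraries, and that of recipient 1308 was above all of them. The differences of P80R B-ALL were -0.56 ± 0.81 log2 from Pax5 KO (adjusted p = 0.614, limma) and -0.54 ± 0.80 from Pax5 WT (adjusted p = 0.624, limma). Without recipient 1308, whose omission took the mean to 29.2 in place of 108, the differences were -1.45 (adjusted p = 0.0146) and -1.43 (adjusted p = 0.0205). Recipient 1308 also had the largest sum of 8 plasmacytoid dendritic cell markers, 359422 against 20738 to 52300 in the other 3 recipients, 33255 to 35638 in Pax5 KO and 19617 to 22097 in Pax5 WT, where Siglech was at 0. The part of these markers in the Pbx3 level was not tested. Pax5 KO and Pax5 WT differed by 0.02 ± 0.23 log2 (adjusted p = 0.946, limma).

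**Figure D3:**
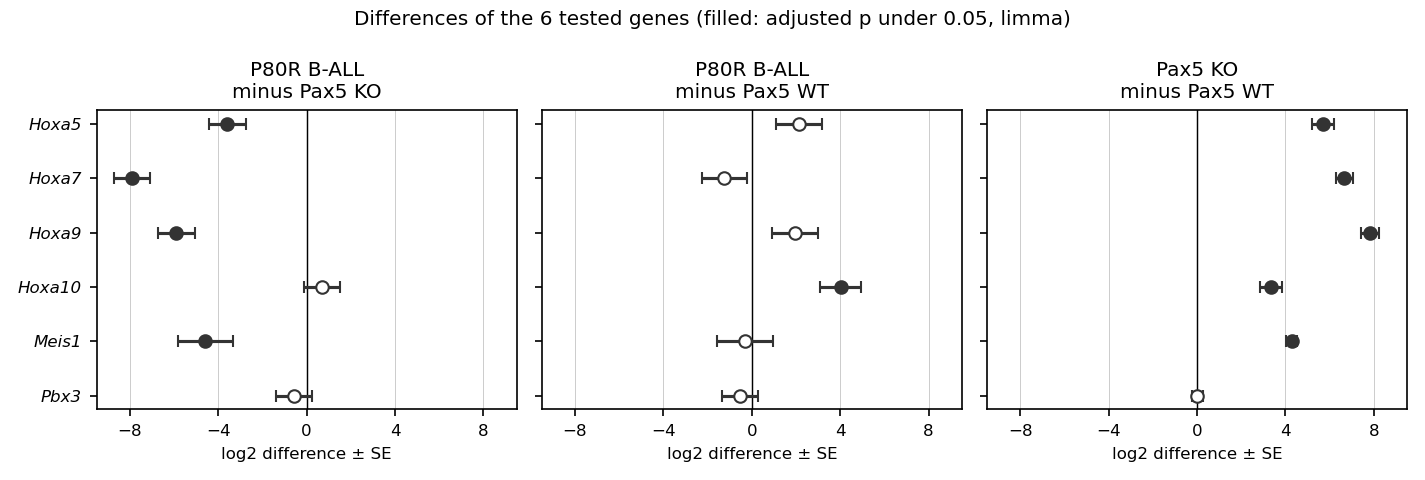
Log2 differences (horizontal, first group minus second, with SE) of the 6 tested genes in the 3 comparisons, filled where the adjusted p was under 0.05. Hoxa5, Hoxa7, Hoxa9 and Meis1 lie left of 0 in P80R B-ALL minus Pax5 KO and right of 0 in Pax5 KO minus Pax5 WT, and Pbx3 is open in all 3 panels.

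Per kilobase of exon, the order of levels in P80R B-ALL was Pbx3 at 17.7 ± 26.0 scaled reads, Meis1 at 11.1 ± 13.2, Hoxa10 at 8.72 ± 8.28 and Hoxa5 at 4.05 ± 3.07 (SD, n = 4), with every other gene at 1.28 or less and with neighbours in the order overlapping. In Pax5 KO it was Hoxa7 at 230.3 ± 19.6, Meis1 at 88.5 ± 6.98, Hoxa9 at 52.3 ± 5.75, Hoxa5 at 39.1 ± 13.1, Pbx3 at 13.0 ± 2.14, Hoxa6 at 8.93 ± 4.20, Hoxa10 at 3.38 ± 0.96 and Hoxa3 at 1.497 ± 0.95. The libraries of Hoxa9 and Hoxa5 overlapped, as did those of Pbx3 and Hoxa6, of Hoxa6 and Hoxa10, and of Hoxa10 and Hoxa3. In Pax5 WT, Pbx3 led at 13.0 ± 3.17, followed by Meis1 at 4.69 ± 1.67 and Hoxa7 at 2.32 ± 1.69, and every other gene was at 0.541 or less. Hoxa7 and Hoxa9 thus ranked above Pbx3 in Pax5 KO and below it in the means of the other groups.

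The HoxB cluster carries paralogues of most HoxA genes. The 11 HoxA genes in the table summed to 55.2, 25.8, 9.92 and 119 scaled reads in P80R B-ALL from recipients 1300, 1301, 1302 and 1308, 1032 to 1096 in Pax5 KO and 5.93 to 18.1 in Pax5 WT. The 10 HoxB genes summed to 1035, 238, 363 and 516 in P80R B-ALL, 299 to 376 in Pax5 KO and 14.2 to 21.01 in Pax5 WT. HoxA genes therefore took 5.07%, 9.81%, 2.66% and 18.7% of all HoxA and HoxB reads in the leukaemias, with exact 95% binomial intervals reaching from 1.15% to 22.6% over the 4. They took 74.4% to 78.1% in Pax5 KO and 23.1% to 52.5% in Pax5 WT, where only a few reads were counted. Intervals of this kind cover counting error only.

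**Figure D4:**
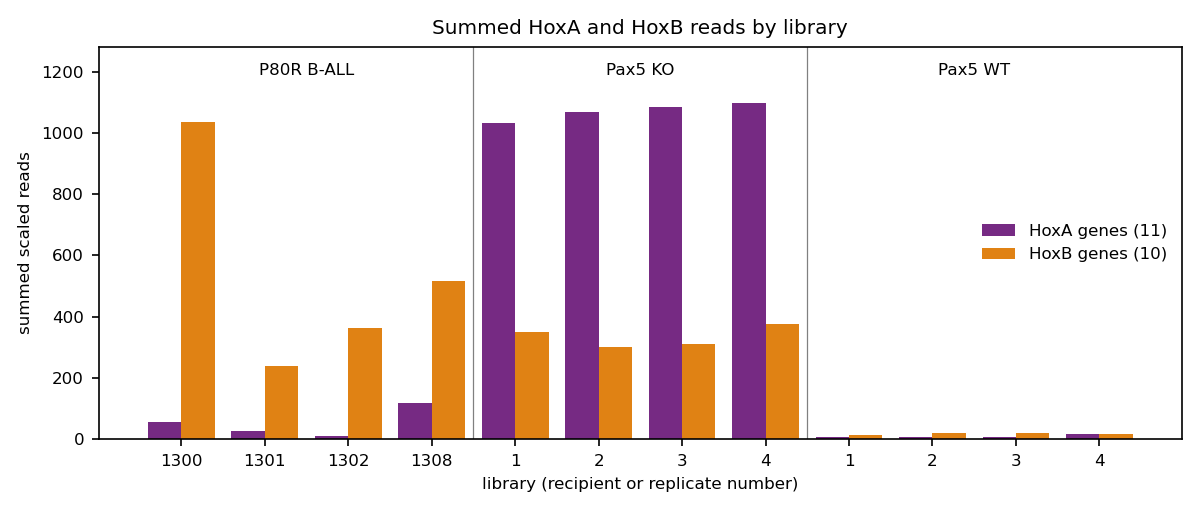
Summed scaled reads (vertical) of the 11 HoxA and the 10 HoxB genes in each library. HoxB is above HoxA in all 4 P80R B-ALL libraries and HoxA is above HoxB in all 4 Pax5 KO libraries, while both are low in Pax5 WT.

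Of the 5 tested HoxB genes, 2 were called higher and 0 lower in P80R B-ALL against Pax5 KO (1 higher and 2 lower without recipient 1300, alone or with 1308, and 1 higher and 0 lower on leaving out any 1 Pax5 KO library). The count was 4 higher and 0 lower in P80R B-ALL against Pax5 WT, and 5 higher and 0 lower in Pax5 KO against Pax5 WT. Over all genes, 38.4%, 39.9% and 64.8% were called in these 3 comparisons. Hoxb5, Hoxb6, Hoxb7 and Hoxb8 were at 3.95 or less in every Pax5 WT library and passed the minimum through P80R B-ALL and Pax5 KO. The counts against Pax5 WT therefore carry no weight of their own. Hoxb7, the paralogue of Hoxa7, was at 409, 129, 207 and 285 in P80R B-ALL, 57.1, 50.9, 36.0 and 62.8 in Pax5 KO, and 0, 0, 3.95 and 0 in Pax5 WT. The leukaemias were above Pax5 KO in all 4 libraries, by 2.20 ± 0.41 log2 (adjusted p = 0.00417, limma). Hoxb5 was at 35.5, 22.2, 24.8 and 27.7 in P80R B-ALL, 13.7, 6.57, 6.00 and 10.1 in Pax5 KO, and 0 in every Pax5 WT library. It was higher in P80R B-ALL than in Pax5 KO by 1.54 ± 0.50 log2 (adjusted p = 0.0378, limma), a call that was lost under 7 of 17 alternatives, with adjusted p up to 0.184. Hoxb4, a gene used to expand stem cells in culture, was at 118, 57.8, 62.0 and 116 in P80R B-ALL, 41.9 to 65.5 in Pax5 KO and 7.56 to 19.0 in Pax5 WT. Its difference between P80R B-ALL and Pax5 KO was 0.57 ± 0.40 log2 (adjusted p = 0.285, limma). Hoxb6 was at 327, 25.8, 69.5 and 78.9 in P80R B-ALL and 168 to 209 in Pax5 KO (-1.11 ± 0.66 log2, adjusted p = 0.211, limma). Without recipient 1300, its P80R B-ALL mean was 58.1 in place of 125 and it was called lower than in Pax5 KO, at -1.76 log2 (adjusted p = 0.0157), or at -2.05 without recipients 1300 and 1308 (adjusted p = 0.00592). Hoxb8 was at 120 in recipient 1300 and 0 in the other 3, against 24.7 to 34.0 in Pax5 KO, and was likewise called lower without recipient 1300 (adjusted p = 0.000869).

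Ratios within a library are given for 2 pairs of paralogues, set up after the values had been seen, and carry no test. The log2 ratio of Hoxa7 to Hoxb7 was -8.68, -4.79, -7.70 and -4.57 in P80R B-ALL and 3.38, 3.76, 4.08 and 3.49 in Pax5 KO. The log2 ratio of Hoxa5 to Hoxb5 was -1.84, -1.47, -4.69 and -0.95 in P80R B-ALL and 2.90, 2.84, 3.33 and 2.51 in Pax5 KO. Both ratios were below 0 in all 4 leukaemias and above 0 in all 4 Pax5 KO libraries. In Pax5 WT, with few reads, Hoxa7 to Hoxb7 was at 2.26, 3.17, -0.73 and 3.80. Hoxa5 to Hoxb5 was at 0, 0, 0 and 1.84 there. Other pairs did not all follow this order. In Pax5 KO, Hoxb6 (168 to 209) was above Hoxa6 (3.05 to 12.0), and Hoxb4 (41.9 to 65.5) above Hoxa4 (0 to 5.78). Hoxa3 and Hoxa9 were above Hoxb3 and Hoxb9 in every Pax5 KO library. In the leukaemias, Hoxa9 was at or above Hoxb9 in every library. Hoxa5 and Hoxa7 had passed the minimum on values through Pax5 KO.

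**Figure D5:**
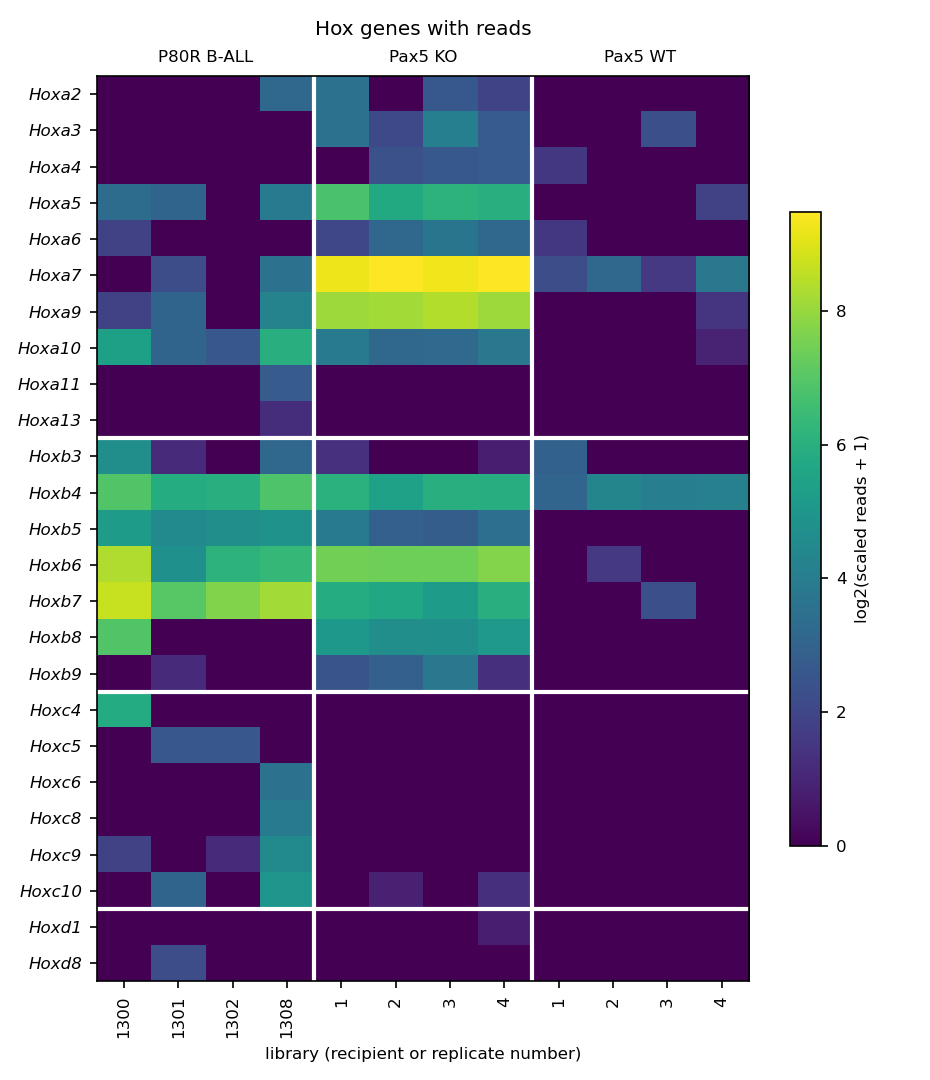
Scaled reads (log2 after adding 1, colour) of Hox genes with reads, by cluster (rows) and library (columns). Hoxa5, Hoxa7 and Hoxa9 are bright in Pax5 KO, Hoxb7 is bright in all 4 P80R B-ALL libraries, and the HoxC and HoxD rows hold few reads, nearly all of them in leukaemias.

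None of the 9 HoxC and 9 HoxD genes in the table was tested. HoxC genes summed to 59.2, 12.3, 6.203 and 77.5 scaled reads in recipients 1300, 1301, 1302 and 1308, at most 1.44 in Pax5 KO and 0 in Pax5 WT. The highest values were those of Hoxc4 at 56.5 in recipient 1300 and Hoxc10 at 30.4, Hoxc9 at 22.1, Hoxc8 at 13.8 and Hoxc6 at 11.1 in recipient 1308. The 12 endothelial and stromal markers summed to 14941, 14301, 11454 and 28892 in recipients 1300, 1301, 1302 and 1308, 12304 to 12884 in Pax5 KO, where Emcn and Dcn were at 0, and 3378 to 3610 in Pax5 WT, where Emcn, Pdgfra and Dcn were at 0. In recipients 1300, 1301 and 1302, most of the sum was Egfl7 (9079, 8501 and 7204), as in Pax5 KO (9249 to 9752). Of the 10 tested, 6 were called higher in P80R B-ALL than in Pax5 KO and 1 lower. All 6 (Emcn, Col1a1, Col1a2, Col3a1, Cxcl12 and Dcn) were above Pax5 KO in every leukaemia. Emcn, Col3a1 and Dcn passed the minimum on values through P80R B-ALL alone. Over all genes, 17.6% were called higher and 20.8% lower there. Recipient 1308 was highest in both the HoxC and the marker sum. The part of these markers in the HoxC reads was not tested.

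Among the other TALE genes, 7 of 14 were tested, with 3 lower in P80R B-ALL against Pax5 KO, 1 lower against Pax5 WT, and 3 higher and 3 lower in Pax5 KO against Pax5 WT. The 3 lower became 1 on leaving out recipient 1301 or any 1 Pax5 KO library, and the 1 lower against Pax5 WT became 2 without recipient 1300. Over all genes, 38.4%, 39.9% and 64.8% were called in the 3 comparisons. Pbx2, a broadly expressed paralogue of Pbx3, was at 788, 505, 639 and 614 in P80R B-ALL, 1088 to 1172 in Pax5 KO and 704 to 761 in Pax5 WT. It fell by 0.85 ± 0.16 log2 against Pax5 KO (adjusted p = 0.00427, limma). Pknox1, another Hox cofactor, differed between P80R B-ALL and Pax5 WT by -1.23 ± 0.24 log2 (adjusted p = 0.00304, limma).

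The genes on either side of the HoxA cluster were read for comparison, and 4 of 6 were tested. In P80R B-ALL against Pax5 KO, 0 were called, or 1 without recipient 1300, alone or with 1308. Against Pax5 WT, 2 were called higher and 0 lower in P80R B-ALL, and 2 higher and 1 lower in Pax5 KO. Over all genes, 38.4%, 39.9% and 64.8% were called in these 3 comparisons. Skap2, an adapter gene beside the cluster, was at 7293 ± 4984 in P80R B-ALL, 4771 ± 143 in Pax5 KO and 2804 ± 21.7 in Pax5 WT (SD, n = 4 each). Without recipient 1308 its P80R B-ALL mean was 4831 ± 943 (SD, n = 3). It was higher than in Pax5 WT both in P80R B-ALL, by 1.17 ± 0.35 log2 (adjusted p = 0.0259, limma), and in Pax5 KO, by 0.77 ± 0.05 (adjusted p = 7.69e-08, limma). The call in P80R B-ALL was lost on leaving out any 1 of the Pax5 WT libraries (adjusted p up to 0.0624), and that in Pax5 KO in the fit to all 12 libraries (0.0692). Snx10 followed, at 1.03 ± 0.23 log2 in P80R B-ALL (adjusted p = 0.00608, limma) and 0.74 ± 0.07 in Pax5 KO (adjusted p = 1.59e-06, limma), both against Pax5 WT.

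Chromatin factors known to keep HoxA genes active, mostly from the menin and KMT2A, DOT1L and MOZ complexes, are set beside the cluster. Of 19 tested, 1 was higher and 6 lower in P80R B-ALL against Pax5 KO, with a median difference of -0.30 log2 beside -0.11 over all genes. The shares of all genes called were 38.4% here, 39.9% in P80R B-ALL against Pax5 WT and 64.8% in Pax5 KO against Pax5 WT. Men1, which encodes menin, was at 2314 ± 299 in P80R B-ALL, 4506 ± 143 in Pax5 KO and 5478 ± 222 in Pax5 WT. It differed by -0.97 ± 0.12 log2 from Pax5 KO (adjusted p = 0.000768, limma). Aff4, a super elongation complex subunit, differed by -1.31 ± 0.16 (adjusted p = 0.000650, limma), and Kat7, a histone acetyltransferase, by -1.14 ± 0.21 (adjusted p = 0.00393, limma). Mllt1, Brpf1 and Kdm6b were also lower, Brpf1 not without Pax5 KO library 1 or 3 (adjusted p up to 0.0531), and Dpy30, a shared subunit of the KMT2 complexes, was higher by 1.08 ± 0.20 (adjusted p = 0.00370, limma). Against Pax5 WT, P80R B-ALL had 1 higher and 7 lower (median -0.39 beside -0.00 over all genes), or 4 lower without Pax5 WT library 1 or 3. The calls of Rbbp5, Mllt1 and Wdr5 in this comparison were lost under 9, 7 and 2 of 18 alternatives, with adjusted p up to 0.130, 0.160 and 0.0568. In Pax5 KO against Pax5 WT 4 were higher and 8 lower (median 0.04 beside 0.06), with Men1 and Dot1l among the lower. Cdx1, Cdx2 and Cdx4, upstream regulators of Hox genes in the embryo, were at 0 in all 12 libraries.

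All 21 genes of the Polycomb list, the repressors of Hox clusters, were tested. P80R B-ALL had 1 higher and 7 lower against Pax5 KO (median -0.21 beside -0.11 over all genes; 2 higher and 3 lower under edgeR, and 0 higher and 2 or 3 lower on leaving out any 1 Pax5 KO library) and 2 higher and 7 lower against Pax5 WT (median -0.30). Pax5 KO had 6 higher and 8 lower against Pax5 WT (median -0.09). Over all genes, 38.4%, 39.9% and 64.8% were called in these 3 comparisons. Ezh2, the H3K27 methyltransferase, was at 7390 ± 1195 in P80R B-ALL, 7375 ± 259 in Pax5 KO and 17809 ± 903 in Pax5 WT. Its difference between P80R B-ALL and Pax5 KO was -0.01 ± 0.14 log2 (adjusted p = 0.955, limma). Bmi1, a Polycomb gene of stem cell maintenance, was higher than in Pax5 WT in P80R B-ALL by 0.98 ± 0.17 log2 (adjusted p = 0.00188, limma) and in Pax5 KO by 0.67 ± 0.09 (adjusted p = 2.40e-05, limma). Eed was the called gene that was higher in P80R B-ALL than in Pax5 KO (0.56 ± 0.18, adjusted p = 0.0390, limma), a call lost on leaving out any 1 Pax5 KO library or recipient 1302 (adjusted p up to 0.0933).

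Genes known as HOXA9 and MEIS1 targets, mostly from myeloid leukaemia, were called in both directions. Of 16 tested, 0 were higher and 5 lower in P80R B-ALL against Pax5 KO (median -0.46 beside -0.11 over all genes), 4 higher and 3 lower against Pax5 WT (median 0.08), and 9 higher and 6 lower in Pax5 KO against Pax5 WT (median 0.78 beside 0.06). Over all genes, 38.4%, 39.9% and 64.8% were called in these 3 comparisons. Without recipients 1300 and 1308 the counts were 2 higher and 6 lower against Pax5 KO and 5 higher and 6 lower against Pax5 WT. Leaving out any 1 Pax5 KO library left 0 higher and 3 lower against Pax5 KO. The 5 lower genes were Flt3, Cd34, Cd33, Igf1r and Pim1. Flt3, a cytokine receptor of early progenitors, was at 5559 ± 4078 in P80R B-ALL, 13184 ± 815 in Pax5 KO and 25.6 ± 7.68 in Pax5 WT, and differed from Pax5 KO by -1.60 ± 0.51 log2 (adjusted p = 0.0369, limma). This call was lost under edgeR, without any 1 Pax5 KO library, and without recipient 1300, 1301, or 1300 and 1308 together (adjusted p up to 0.0938). The call of Pim1 was lost under edgeR, without any 1 Pax5 KO library, and without recipient 1308, alone or with 1300 (up to 0.0762). Cd34, a progenitor surface marker, was at 12.6 ± 11.7 in P80R B-ALL, 2706 ± 207 in Pax5 KO and 5.97 ± 3.28 in Pax5 WT and differed from Pax5 KO by -8.45 ± 0.91 log2 (adjusted p = 0.000400, limma). Igf1r, a growth factor receptor, was at 39.0 ± 28.6 in P80R B-ALL, 549 ± 86.2 in Pax5 KO and 960 ± 174 in Pax5 WT. Lmo2 and Id2 were higher in P80R B-ALL than in Pax5 WT, by 2.57 ± 0.37 and 3.53 ± 0.54 log2 (adjusted p = 0.000747 and 0.00111, limma). Myc, at 13228 ± 6312, 15797 ± 362 and 8686 ± 197 in P80R B-ALL, Pax5 KO and Pax5 WT, was called in Pax5 KO against Pax5 WT alone (0.86 ± 0.05, adjusted p = 1.30e-08, limma, but 0.0502 in the fit to all 12 libraries).

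The genes with a pattern most like that of Hoxa9 over the 12 libraries, by Pearson correlation of log2 values, were Ptger3 (r = 0.986), Fbxo33 (0.982), Sgk2 (0.972), Aamp (0.968) and Cd27 (0.965). Ptger3, a prostaglandin E receptor gene, averaged 11.7 ± 16.3 in P80R B-ALL, 716 ± 63.1 in Pax5 KO and 0 in Pax5 WT. For Meis1 they were Rara (0.986), Plekhg3 (0.983), Fmnl1 (0.979), Atf6 (0.978) and Myo5a (0.972). Rara, the retinoic acid receptor alpha gene, averaged 623 in P80R B-ALL, 1778 in Pax5 KO and 452 in Pax5 WT. For Pbx3 the first was Adipor1 (0.944), and the others were Creld1, Gstk1, Stard3 and Trim3. For the mean z-score of the 4 tested HoxA genes they were Eid1 (0.980), Chdh, Lactb, Gabarapl1 and Gm4779. The 12 points fall into 3 groups, so these correlations include the differences between group means and describe likeness only. With rank correlation, 1 of the 5 genes was shared in each case.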

How the data were processed

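RNA of sorted cells was made into full-length SMART-Seq v4 libraries, per the labels' protocols. The build mm39 and the tools fastp, STAR 2.7.8a and featureCounts are named in the submitters' processing notes, and the handling of multi-mapping reads and strand is not stated there. The deposited signal values are read counts divided by 1 factor per library: 100% of values were whole multiples within a tolerance of 0.001, so whole reads were recovered.

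Symbols and exon lengths came from GENCODE M21 (21780 identifiers matched, 105 did not). The 12200 genes that reached a value of 10 in 4 or more libraries were tested on log2(value + 1) with limma 3.58.1 in R 4.3.3 (two-sided, trend and robust options), using only the 8 libraries of each pair, and Benjamini-Hochberg adjusted over all genes, with a threshold of 0.05. Log2 differences after adding 1 understate the change of low genes. The edgeR 4.0.16 quasi-likelihood test on recovered reads was an alternative and called 4352, 4785 and 7890 genes in P80R B-ALL against Pax5 KO, P80R B-ALL against Pax5 WT and Pax5 KO against Pax5 WT. DESeq2 1.42.0, other scalings, pseudocounts, filters and omissions were further alternatives. Scripts were tested on simulated data. Results for some genes of the lists are not reported here.

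The genes described and all lists were chosen with earlier results of these data known. From each list the text could name called members and up to 4 members with the smallest p in a comparison, and for likeness the 5 tested genes with the highest correlation. For groups with 1 to 3 reads the read ratio has a 95% counting interval, and for a group at 0 the fold is a bound, taken against 3 reads in each library. PCR reads carry no molecular identifiers here, so both cover counting error only.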

Additional observations from a re-analysis of the deposited data

Results flagged for a closer look

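In 8 of 23 groups of 4 libraries, 1 library lay far from the other 3 (gap over range above Dixon's 95% critical value), and chance flags about 1 in 20 groups. In 6 of them the other 3 libraries were at 0, where any read gives a gap over range of 1. The rate of 1 in 20 therefore does not hold for these 6. These were Hoxa3 at 3.95 in Pax5 WT library 3, Hoxa5 at 2.58 in Pax5 WT library 4, Hoxa6 at 2.63 in P80R B-ALL recipient 1300 and at 1.89 in Pax5 WT library 1, Hoxa9 at 1.72 in Pax5 WT library 4, and Hoxa10 at 0.860 in Pax5 WT library 4. Pax5 WT library 4 was the one with reads in Hoxa5, Hoxa9 and Hoxa10, and it also had the highest Hoxa7 value of that group, 12.9. Meis1 was lowest in Pax5 KO library 4, at 822, beside 967 to 972 in the other 3. Pbx3 was highest in P80R B-ALL recipient 1308, at 346, beside 19.8 to 38.1 in the other 3.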

How the results depend on the processing

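The calls of Hoxa5, Hoxa7 and Hoxa9 in P80R B-ALL against Pax5 KO, of Hoxa10 in P80R B-ALL against Pax5 WT, and of Hoxa5, Hoxa7, Hoxa9, Hoxa10 and Meis1 in Pax5 KO against Pax5 WT held under every alternative run, except that a minimum of 50 left Hoxa10 untested. Each omission kept the genes that had passed the minimum over all 12 libraries, Hoxa10 among them. Leaving out 1 library gave 3118 to 5315 called genes in P80R B-ALL against Pax5 KO (main 4683), of them 1596 to 2954 lower (main 2532). In that comparison it gave Meis1 -5.56 to -3.41 and Pbx3 -1.45 to -0.097, and edgeR gave Meis1 -2.93 and Pbx3 0.48. Without recipients 1300 and 1308, Hoxa10 was -0.73 and Pbx3 -1.66 (adjusted p = 0.00607). In P80R B-ALL against Pax5 WT, leaving out 1 library gave Hoxa5 1.68 to 2.98, Hoxa9 1.28 to 2.697, Meis1 -1.27 to 0.87 and Pbx3 -1.43 to -0.077. There Hoxa5 passed at 2.12 in the fit to all 12 libraries (adjusted p = 0.0455). Meis1 turned to 1.23 under edgeR, 1.27 under DESeq2 and 0.066 with a pseudocount of 8, and Pbx3 to 0.42 under edgeR and -1.64 without recipients 1300 and 1308 (adjusted p = 0.0118). In Pax5 KO against Pax5 WT, Pbx3 ranged from -0.12 to 0.15 on leaving out 1 library and was -0.0081 under edgeR, -0.010 under DESeq2, -0.047 with weights and -0.0017 with TMM scaling. The fit to all 12 libraries called 4193 genes there, 2449 higher and 1744 lower (main 7901), with 2 higher and 4 lower among the activators and 3 and 4 in the Polycomb list. The cause of these changes was not tested. DESeq2 gave no adjusted p for Pbx3 in the P80R B-ALL comparisons. In P80R B-ALL against Pax5 KO, 45.9% of called genes were higher, against 57.9% under edgeR and 57.4% under DESeq2, with a median difference over all genes of -0.11, 0.06 and 0.08. Same-numbered Pax5 KO and Pax5 WT libraries correlated at 0.00493 to 0.0616 in their deviations, and 3 of 8 correlated best with their own number. Pairing by number was thus not detected, which does not show that there was none. A replicate block called 7987 genes.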
